A study of Homo sapiens with 12 samples.

Results

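The genes described here are 38 mitotic and G2/M genes, taken from a fixed list of symbols, out of 58302 genes in the deposited gene table. They were measured in 6 input libraries of the human colorectal cancer line DLD1, an established epithelial line, at passage 5. A table of differential N4-acetylcytidine (ac4C) peaks was also read, in which 15 of the 38 genes held 19 of 2364 peaks. The design asks which mRNA carries ac4C written by NAT10, the acetyltransferase that puts this mark on cytidine in RNA.

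There were 12 libraries in 4 groups of 3. Input and antibody-selected (acRIP) RNA came from cells with a control hairpin labelled shNC and from cells with a hairpin against NAT10 labelled shNAT10. Every group was total RNA from the same line at the same passage, with no drug or time point in the labels. How many hairpins or clones stood behind a label, and whether replicates were separate cultures, is not given in these sources, so p-values measure the spread between these samples, which may be technical. The acRIP libraries had no column in the gene table, so levels below are those of input RNA, and the RNA of few dividing cells and of low levels in every cell cannot be told apart.

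Cells enter mitosis when cyclin B activates the kinase CDK1, after which Polo-like and Aurora kinases build the spindle. Kinetochores then attach chromosomes to microtubules, and a checkpoint holds back the anaphase-promoting complex (APC/C) until all are attached. The mRNAs of these proteins peak together in G2 and M phase, through promoter elements bound by NF-Y and by the DREAM, B-MYB and FOXM1 complexes, and they serve as a proliferation signature of tumour cells.

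Of the 38 genes, 35 reached the mean FPKM of 1 needed for testing, and none passed between the hairpins by limma at an adjusted p under 0.05, nor by voom on recovered fragments. Over all genes 0.190% (20 of 10517) passed that test, and of the 8140 protein-coding genes none did. At an unadjusted p under 0.05 there was 1 mitotic gene, CDK1, or 2.86% of 35, against 3.70% of all genes tested and 2.19% of the protein-coding ones. With voom 0 mitotic genes were at an unadjusted p under 0.05, but so was only 1 of all 10517 genes. The differences (shNAT10 minus shNC, in mean log2(FPKM + 1)) were above 0 for 16 genes and below 0 for 19. Their median of -0.50 lay next to the median of -0.49 over all genes tested, and it was 0.05 over the 24 genes of mean FPKM at least 5 and 0.03 after quantile normalization. FPKM counts fragments relative to the length of the gene and the size of the library.

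The libraries themselves limit these values. Fragments on genes numbered 2636926 to 2758246 in shNC and 1224102 to 1303832 in the libraries labelled shNAT10. NAT10 was at FPKM 1.24, 3.95 and 2.89 in shNC, against 0, 28.1 and 31.4 in the libraries labelled shNAT10. Thus 2 of those 3 libraries were above every shNC library, against the label. The NAT10 difference was 1.48 (SE 1.86, limma adjusted p = 0.754; exact two-sided permutation p = 0.4, smallest possible 0.1), and it was 3.13, 0.70 and 0.62 without shNAT10 replicates 1, 2 and 3. Epithelial markers were present, with 9 of 10 tested and KRT20 at or near 0, and some differed between the groups without overlap. KRT8, a keratin of simple epithelia, had 3112, 3774 and 3294 in shNC, against 5643, 5573 and 5866 in the libraries labelled shNAT10 (limma adjusted p = 0.598), and KRT18 and KRT19 were also higher. The adhesion molecule EPCAM went the other way, at 226, 369.7 and 262 against 38.3, 80.3 and 128 (limma adjusted p = 0.754). Leukocyte, endothelial and erythroid markers were near 0, with 2 of 9 above 0 and none above 0.241. Fibroblast and muscle markers, 7 in all, summed to FPKM 1.12 to 6.34 in shNC and to 24.5 to 85.4 in the libraries labelled shNAT10. Of these TAGLN was at 68.9, 2.04 and 1.49 in the libraries labelled shNAT10 and at 0 with shNC, whereas COL1A1 did not exceed 0.425. VIM had 0, 1.12 and 6.34 in shNC, against 0, 0.129 and 78.0 in the libraries labelled shNAT10. ACTA2 had 3.67, 0 and 0 against 0, 22.0 and 1.40. The part of these shifts in the results below was not tested.

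Fewer mitotic genes were detected in the libraries labelled shNAT10. Above 0 were 31, 30 and 30 of the 38 in shNC, against 23, 25 and 20 in the libraries labelled shNAT10. With every library thinned to 1224102 fragments the expected numbers were 28.5, 29.2 and 28.3 against 22.8, 25.0 and 20.0, which treats fragments as independent though PCR copies were not marked. Of all genes tested, the numbers also differed between the groups, at 6760, 6783 and 6901 against 5573, 5650 and 6446 after thinning. Of the values of the 38 genes, 20.2% were 0 in shNC and 40.4% in the libraries labelled shNAT10. For all genes tested the shares were 32.4% and 43.9%. Unlike that set, the 38 genes include ESPL1, NUF2 and KIF23, whose levels were too low for testing.

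The summed mitotic signal overlapped between the groups. Per 10000 fragments on genes, the 38 genes took 26.6, 34.0 and 29.8 in shNC, against 33.6, 29.8 and 39.4 in the libraries labelled shNAT10. Their summed FPKM was 502, 567 and 428 in shNC, against 583, 491 and 859 in the libraries labelled shNAT10. Of it the 3 most abundant genes held 47.9%, 37.1% and 32.7% in shNC, against 53.4%, 58.6% and 45.1% in the libraries labelled shNAT10. These shares overlapped between the groups, and the same measure was not taken over other genes. The leading genes changed from library to library. CDC20 led in shNC replicates 1 and 2 and in shNAT10 replicate 1, CCNB1 in shNC replicate 3, TPX2 in shNAT10 replicate 2 and AURKB in shNAT10 replicate 3.

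**Figure D1:**
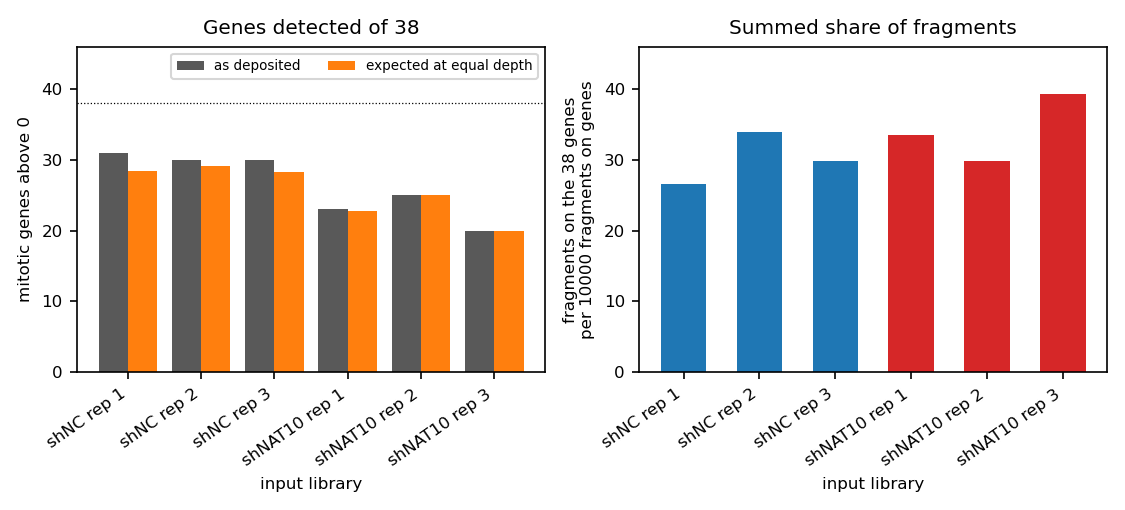
Left, the number of the 38 mitotic genes above 0 in each input library, as deposited (grey) and estimated for equal depth (orange), with a dotted line at 38; right, fragments on the 38 genes per 10000 fragments on genes. The shNC libraries detect 30 or 31 genes and those labelled shNAT10 detect 20 to 25, while the summed share runs from 26.6 to 39.4 and overlaps between the groups.

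Replicates of one group often disagreed from near absence to high levels. In shNC, 25 of the 38 genes reached at least 100 fragments in a library, and 4 of them (16.0%) were at 0 in another shNC replicate. The same share over all genes tested was 44.6%. In the libraries labelled shNAT10 it was 8 of 20 mitotic genes (40.0%), against 48.6% of all. Only 12 of the 38 genes were above 0 in all 6 libraries.

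**Figure D2:**
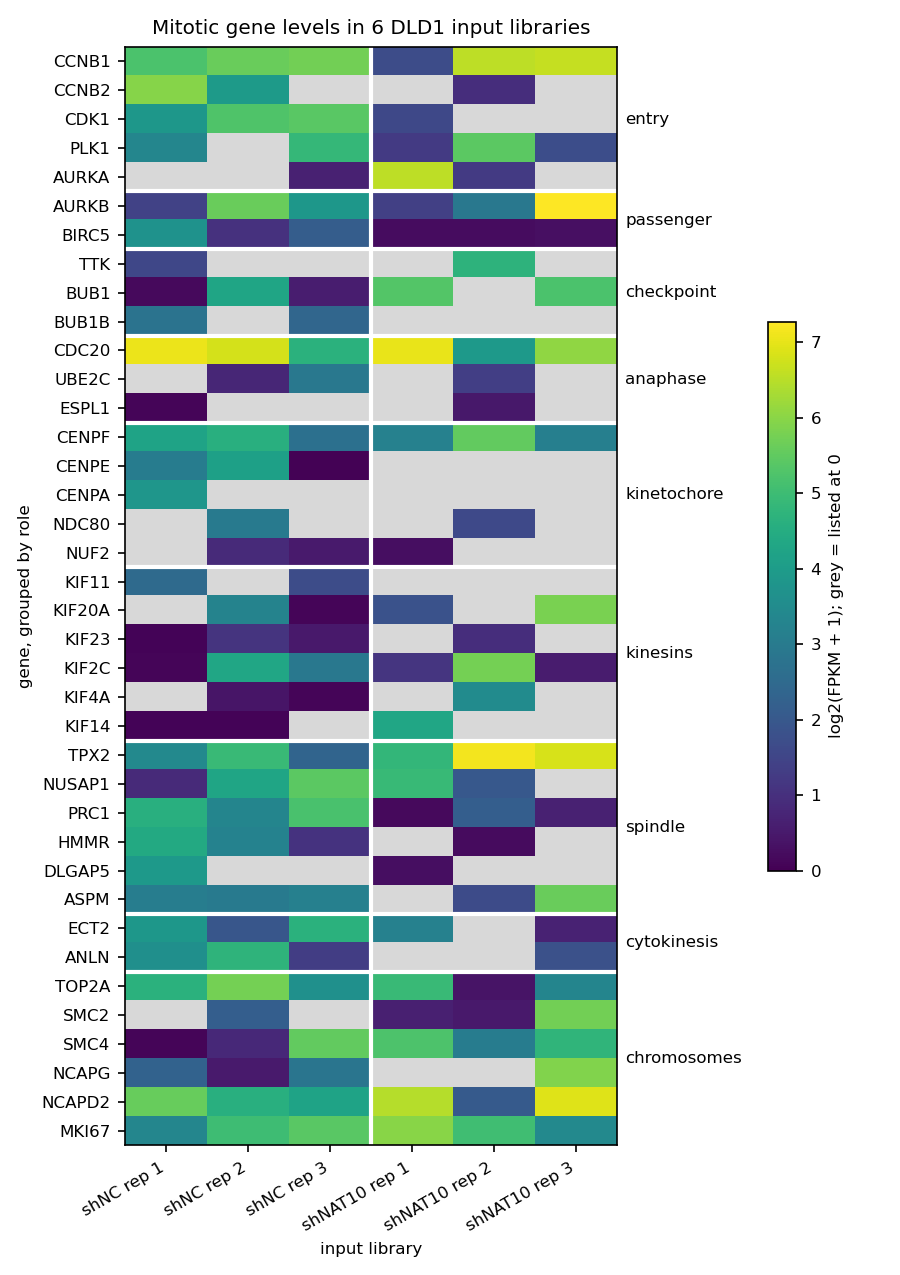
Levels of the 38 genes (rows, grouped by role) in the 6 input libraries (columns) as log2(FPKM + 1), with values listed at 0 in grey. Rows such as TPX2, CDC20 and CCNB1 are filled in all 6 libraries, whereas TTK, CENPA and NDC80 are grey in most of them, and grey cells are more frequent on the right.

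Most of the genes share promoter elements, which the choice by symbol did not use. RefSeq promoters (GRCh38.p14, 250 bases before the start) were matched for 33 of them. For 5 genes with several starts the first listed was taken, which need not be the one furthest upstream. The CCAAT box, which NF-Y binds, was searched as CCAAT on both strands, and the cell-cycle gene homology region (CHR), bound by the DREAM and B-MYB complexes, as TTTGAA on both strands or as TTTAAA, a palindrome. At least 1 CCAAT box was found in 24 of 33 (72.7%), against 33.0% of 27305 RefSeq promoters and 34.5% of the 15842 protein-coding ones. A CHR match was found in 27 (81.8%), against 22.1% and 18.1%. Both occurred in 22 (66.7%), against 7.85% and 6.85%. More than 1 CCAAT box stood in 15 promoters (45.5%), against 10.0% of all. The TTTAAA form can also lie in AT-rich core promoters, and a match is a description, not a bound site.

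The following 120 bases upstream of the start, on the gene's strand and 5′ to 3′, show the arrangement in 2 cyclins, a kinase, the APC/C activator and the Ki-67 gene; capitals mark CCAAT boxes and CHR matches. They were chosen after the matches were seen.
CCNB1: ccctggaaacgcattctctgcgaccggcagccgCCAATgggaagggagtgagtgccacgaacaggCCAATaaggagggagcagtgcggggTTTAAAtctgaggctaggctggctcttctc
CCNB2: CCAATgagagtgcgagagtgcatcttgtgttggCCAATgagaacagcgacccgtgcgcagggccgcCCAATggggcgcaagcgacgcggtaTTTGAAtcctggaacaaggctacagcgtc
PLK1: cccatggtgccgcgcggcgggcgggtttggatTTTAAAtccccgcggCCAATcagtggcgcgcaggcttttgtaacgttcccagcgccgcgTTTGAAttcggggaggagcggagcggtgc
CDC20: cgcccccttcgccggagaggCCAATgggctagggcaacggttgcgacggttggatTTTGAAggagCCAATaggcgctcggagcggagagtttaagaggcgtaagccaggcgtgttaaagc
MKI67: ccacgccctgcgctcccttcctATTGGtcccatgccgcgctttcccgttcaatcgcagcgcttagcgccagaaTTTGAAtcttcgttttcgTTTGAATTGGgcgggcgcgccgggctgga

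These lie at chr5:69167030-69167149 (plus strand), chr15:59105026-59105145 (plus), chr16:23678769-23678888 (plus), chr1:43358861-43358980 (plus) and chr10:128126424-128126543 (minus). In CCNB1, CCNB2, PLK1 and MKI67 a CHR match began 29 or 30 bases before the start. CCNB1 and CCNB2 both had CCAAT boxes at 87 bases and again at 54 or 55 bases, and CCNB2 had a further one at 120. Within the bases shown, CDC20 had its CHR match at 65, between boxes at 100 and 55. Further matches lay upstream of the bases shown, such as a CHR match at 178 in CDC20. In MKI67 the CHR match at 29 overlapped a CCAAT box in the other orientation at 24. KIF2C, NDC80, NUF2 and SMC2 had neither element in the 250 bases searched. The SMC2 start used lay inside the gene: the 120 bases before it are at chr9:104094189-104094308 (plus), and the gene begins at 104088263. The bases upstream of the whole SMC2 gene were thus not searched. The start used for AURKB also lay inside its gene.

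The mitotic entry genes included the one with the largest difference. CDK1, the kinase that drives entry into mitosis, had FPKM 13.4, 37.9 and 41.9 in shNC, against 2.01, 0 and 0 in the libraries labelled shNAT10. Its fragments numbered 178, 489 and 565 against 11, 0 and 0, and the groups did not overlap. The difference was -4.32 (SE 1.84, 95% interval -7.94 to -0.70), with an unadjusted limma p of 0.0195 that did not pass after adjustment over all genes (limma adjusted p = 0.754). It was between -4.85 and -4.03 with any 1 library left out. Its size depended on the scale, at -6.65 and -8.88 with pseudocounts of 0.1 and 0.01 and -6.94 with voom.

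CDK1 acts with B-type cyclins. CCNB1, the main mitotic cyclin, had 35.8, 47.6 and 52.1 in shNC, against 2.25, 92.4 and 97.9 in the libraries labelled shNAT10. Replicate 1 of the latter was thus lowest of all and replicates 2 and 3 were the highest, while in those same replicates 2 and 3 CDK1 was at 0. In the other 4 libraries CCNB1 and CDK1 were within 4-fold of each other. The CCNB1 difference was -0.55 (SE 1.42), and 1.07 without shNAT10 replicate 1. CCNB2, the second B-type cyclin, had 60.7, 14.5 and 0 against 0, 0.953 and 0, a difference of -2.98 (SE 1.88, limma adjusted p = 0.754) below 0 like that of CDK1, with overlapping groups. It was -1.65 without shNC replicate 1 and -4.63 without shNC replicate 3.

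PLK1, a kinase of centrosome maturation and spindle assembly, had 9.13, 0 and 27.5 in shNC, against 1.36, 42.8 and 2.28 in the libraries labelled shNAT10. AURKA, the centrosomal Aurora kinase, was at 0, 0 and 0.598 against 92.7, 1.37 and 0. Its difference of 2.37 (SE 1.80) came from 1 library with 377 fragments. No entry gene had a peak in the authors' deposited table.

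AURKB and BIRC5 encode the kinase and the survivin subunit of the chromosomal passenger complex, which corrects faulty attachments. AURKB had 1.71, 47.5 and 13.4 in shNC, against 1.61, 6.55 and 154 in the libraries labelled shNAT10, where 1 replicate exceeded every other library. BIRC5 had 12.0, 1.04 and 3.44 against 0.189, 0.175 and 0.219, with 155, 13 and 45 fragments against 1 in each library. Its groups did not overlap, at a difference of -2.04 (SE 1.72, limma adjusted p = 0.754). Both genes were above 0 in 6 of 6 libraries but within 4-fold of each other in 1. Partners were compared in 11 pairs, not all printed here, and the same measure was not taken over unrelated genes.

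The spindle checkpoint kinases were uneven in both groups. TTK, also called MPS1, had 1.94, 0 and 0 in shNC, against 0, 25.2 and 0 in the libraries labelled shNAT10. BUB1 had 0.147, 18.3 and 0.484 against 39.1, 0 and 36.0. Its relative BUB1B (BubR1), part of the complex that inhibits the APC/C, had 5.88, 0 and 4.30 whereas every library labelled shNAT10 listed it at 0. BUB1 was thus high in 3 libraries in which BUB1B was at 0, shNC replicate 2 among them. The differences were 1.83 (SE 1.86) and -1.73 (SE 1.46). That of BUB1 was 0.92 without shNAT10 replicate 1 and 3.59 without shNAT10 replicate 2.

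Anaphase is triggered by the APC/C. Its activator CDC20 was the most abundant of the 38 genes, at 133, 110.1 and 24.1 in shNC, against 130.3, 14.1 and 65.5 in the libraries labelled shNAT10. The ranges overlapped almost in full, and the difference was -0.50 (SE 1.26). UBE2C, the E2 enzyme of the APC/C, reached only 6.58 in any library, and separase (ESPL1), the protease that cuts cohesin, stayed at or below 0.375 and under the limit for testing.

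Among kinetochore and centromere genes only CENPF, a large protein of the outer kinetochore, was above 0 in all 6 libraries. It had 17.8, 23.2 and 5.39 in shNC, against 8.13, 45.2 and 7.86 in the libraries labelled shNAT10, a difference of 0.12 (SE 1.68). CENPE, the kinetochore motor, had 7.36, 16.5 and 0.0309 in shNC, whereas every library labelled shNAT10 listed it at 0. Its lowest shNC value rested on 1 fragment, and the difference was -2.41 (SE 1.69, limma adjusted p = 0.754). CENPA, the centromeric histone, was above 0 in 1 library only, at 13.1 in shNC replicate 1. The microtubule-binding NDC80 was above 0 in 2 libraries and its partner NUF2, below the limit for testing, in 3. Both were detected together in 1 library.

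Of 6 mitotic kinesins, 5 were tested. KIF2C, which removes tubulin from microtubule ends, had 0.0811, 18.9 and 6.56 in shNC, against 1.18, 53.5 and 0.458 in the libraries labelled shNAT10. KIF4A, a motor of the central spindle, had 0, 0.336 and 0.0644 against 0, 10.3 and 0. KIF20A had 0, 8.54 and 0.0737 in shNC, against 2.55, 0 and 54.8 in the libraries labelled shNAT10. KIF14 had 18.9 in shNAT10 replicate 1 and did not exceed 0.0418 elsewhere, and both act in cytokinesis. KIF11, the motor that separates the poles, had 4.74, 0 and 2.22 in shNC, and 0 in the other 3 libraries. KIF23, the motor of the centralspindlin complex, did not exceed 1.15.

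Spindle assembly genes lay at both ends of the range of differences. TPX2, which activates Aurora A and nucleates microtubules, had 9.67, 29.8 and 4.05 in shNC, against 27.3, 142 and 114 in the libraries labelled shNAT10. One of these values lay just under the highest shNC value and the other 2 above it. Its difference of 2.71 (SE 1.48, 95% interval -0.20 to 5.62, limma adjusted p = 0.754) was the largest above 0, from 118, 353 and 50 fragments against 137, 766 and 492. AURKA, which the TPX2 protein activates, was within 4-fold of TPX2 in 1 of 6 libraries.

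PRC1, the crosslinker of antiparallel microtubules in the central spindle, ran the other way. It had 23.3, 8.98 and 35.4 in shNC, against 0.130, 3.50 and 0.604 in the libraries labelled shNAT10, with no overlap. The difference was -3.36 (SE 1.84, 95% interval -6.98 to 0.26, limma adjusted p = 0.754), between -3.94 and -2.94 with any 1 library left out. HMMR, a spindle-pole protein, had 20.5, 8.35 and 1.11 against 0, 0.170 and 0, also without overlap.

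NUSAP1, a microtubule bundler, had 0.822, 18.5 and 42.6 in shNC, against 28.8, 3.02 and 0 in the libraries labelled shNAT10. DLGAP5, which stabilises kinetochore fibres, was at 14.1 in shNC replicate 1 from 175 fragments, at 0.196 in shNAT10 replicate 1 and at 0 in the other 4 libraries. ASPM, a spindle-pole protein whose loss causes microcephaly, was even in shNC at 7.49, 6.82 and 8.04 and uneven in the libraries labelled shNAT10 at 0, 2.15 and 48.1. The cytokinesis genes had more in shNC on average. ECT2, the activator of RhoA at the cleavage plane, had 13.5, 2.88 and 24.0 against 8.11, 0 and 0.607, a difference of -2.20 (SE 1.86). ANLN (anillin) had 11.4, 25.8 and 1.50 against 0, 0 and 2.50, at -2.63 (SE 1.88).

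Genes of chromosome structure were mostly above 0 in difference, in 5 of 6, with MKI67 at -0.03 on the TPM scale. The proliferation marker MKI67 (Ki-67), which coats mitotic chromosomes, had 9.21, 31.3 and 41.4 in shNC, against 62.7, 31.9 and 9.78 in the libraries labelled shNAT10. Its groups overlapped throughout (difference 0.23, SE 1.52), from 399 to 1816 fragments in shNC. TOP2A, the topoisomerase that untangles sister chromatids, had 24.3, 52.6 and 11.5 against 29.6, 0.311 and 8.95, at -1.80 (SE 1.70).

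The condensin subunits compact chromosomes as one complex. SMC4 had 0.0699, 0.792 and 45.0 in shNC, against 36.6, 7.34 and 26.1 in the libraries labelled shNAT10, a difference of 2.20 (SE 1.79) that was 1.17 without shNC replicate 1 and 3.88 without shNC replicate 3. Its partner SMC2 had 0, 3.48 and 0 against 0.556, 0.413 and 52.0, at 1.57 (SE 1.83), and was within 4-fold of SMC4 in 1 of 6 libraries. NCAPD2, the most abundant, had 47.1, 23.1 and 17.5 against 88.2, 3.19 and 119. NCAPG had 3.90, 0.433 and 6.05 against 0, 0 and 58.4, within 4-fold of NCAPD2 in 2 of 6 libraries. In shNAT10 replicate 3 NCAPD2, NCAPG and SMC2 were each at their highest.

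Across the roles, the groups did not overlap for CDK1, BIRC5, CENPE, PRC1 and HMMR, all lower in the libraries labelled shNAT10. That is 14.3% of the 35 tested genes, where 6.72% of all genes tested and 7.57% of the protein-coding ones were lower without overlap. No mitotic gene was higher without overlap, against 2.89% of all genes. These 5 genes were counted after the values were seen, and the lower depth of the libraries labelled shNAT10 was present beside all of them. CDK1, BIRC5, CENPE and HMMR averaged FPKM 0.671, 0.194, 0 and 0.0565 in those libraries. They thus reached the limit for testing only through shNC, where they were high. Their share is a description and was not tested.

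**Figure D3:**
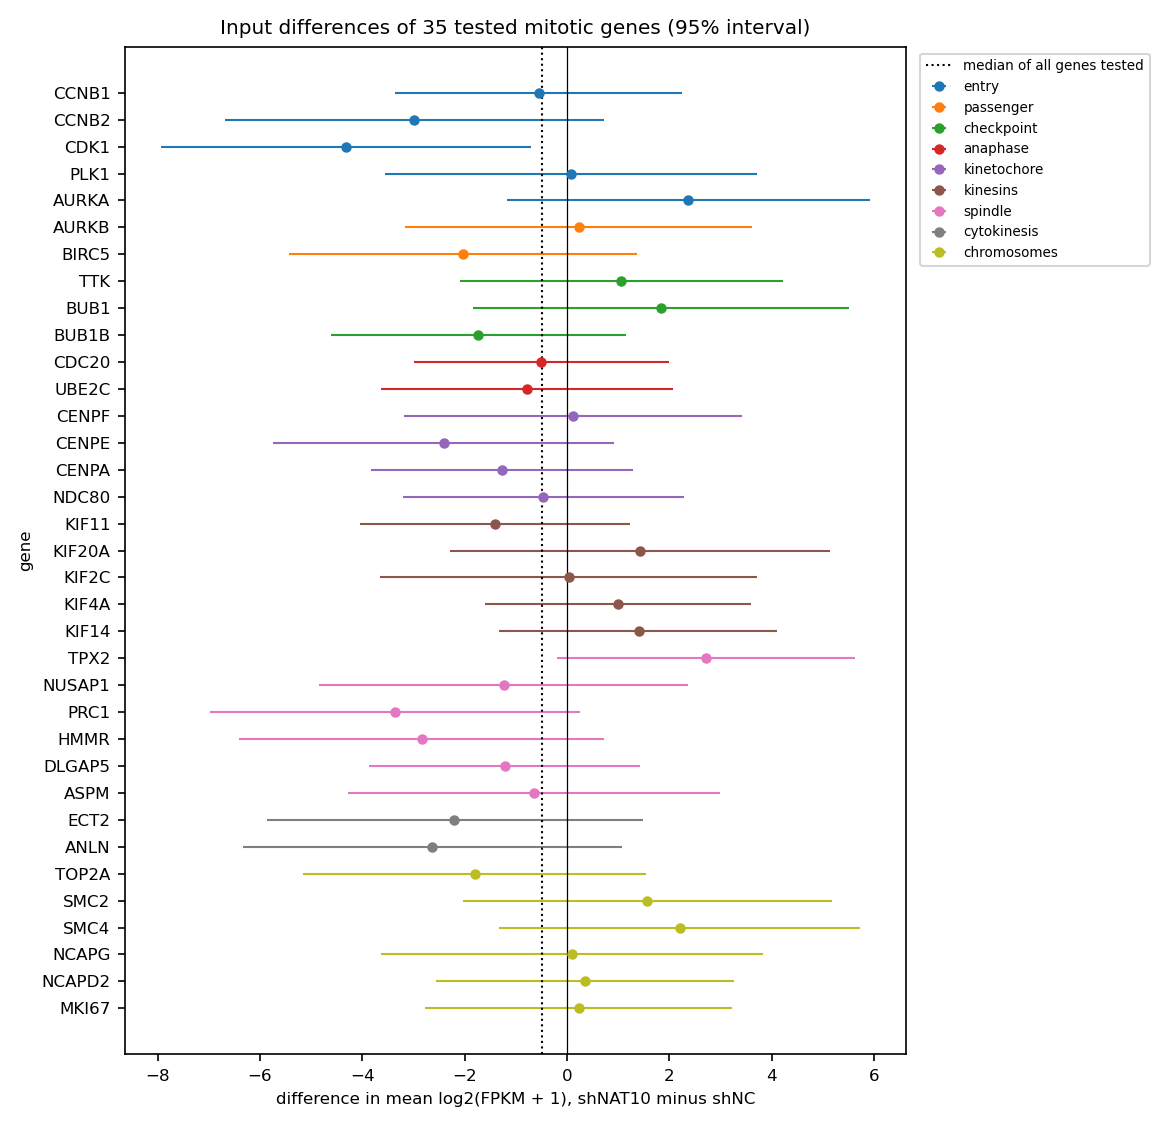
Difference in mean log2(FPKM + 1), shNAT10 minus shNC, for the 35 tested genes with 95% intervals from limma, coloured by role; the solid line is 0 and the dotted line the median of all genes tested. Only the interval of CDK1 excludes 0, and points lie on both sides of the dotted line in most roles.

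Another 91 genes of the same pathways, listed in 6 groups, were read in the same way. Of 77 tested, none passed by limma, 28 were above 0 and 49 below 0 in difference, and 1 had an unadjusted p under 0.05. Their median was -0.77, and 4 were lower (5.19%) and 1 higher (1.30%) without overlap, both under the shares over all genes tested. The gene at an unadjusted p under 0.05 was NSL1, a subunit of the MIS12 kinetochore complex, with 9.97, 19.6 and 28.3 in shNC and 0 in all 3 libraries labelled shNAT10 (-4.23, SE 1.87, limma adjusted p = 0.754). With SKA3, an outer kinetochore protein at 18.2, 36.6 and 0 against 0 throughout, it led the kinetochore group (17 tested, median -1.10).

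FOXM1, the transcription factor that activates many of the 38 genes, had 40.6, 0.746 and 1.79 in shNC, against 0, 0.409 and 0 in the libraries labelled shNAT10. The NF-Y subunit NFYC had 0.691, 24.5 and 8.77 against 0.601, 1.78 and 0.279, and the transcription group as a whole had a median of 0.05 over 8 tested genes. Entry regulators had a median of -0.06 over 10. CCNF had 1.55, 0.0483 and 0.509 against 1.25, 27.6 and 43.1, and CCNA2, cyclin A2, was at 31.0 in a single library labelled shNAT10.

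In the checkpoint and APC/C group (16 tested, median -0.79) UBE2S, the E2 that extends ubiquitin chains, had 1.48, 0.437 and 12.1 in shNC, against 16.8, 34.7 and 29.9 in the libraries labelled shNAT10, without overlap. ANAPC10, an APC/C subunit, had 87.3, 33.7 and 48.3 against 21.8, 37.0 and 0.554. Cohesin and condensin genes had a median of -0.10 over 11, with the cohesin subunit RAD21 at 0.239, 13.8 and 29.7 against 20.0, 20.7 and 57.0, and its regulator PDS5B at 9.44, 5.60 and 10.0 against 0.109, 5.71 and 0. Spindle and cytokinesis genes had the lowest median, -1.24 over 15. CEP55, which recruits the abscission machinery, had 62.8, 28.8 and 0.0892 against 0 in all 3, and CKAP2, a spindle protein, had 21.0, 36.0 and 24.8 against 31.3, 0.147 and 0.184.

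The second readout was the authors' deposited table of differential ac4C peaks, which lists peaks up to a differential FDR of 0.0501 and does not state which hairpin is the numerator of its log2 change. By the authors' deposited table, 15 of the 35 tested mitotic genes (42.9%) had a peak, against 15.4% of all genes tested and 19.0% of the protein-coding ones. More abundant genes carried peaks more often: at a mean FPKM of at least 10 the shares in the authors' deposited table were 55.0% of 20 mitotic genes and 25.9% of 2974 coding genes. Adding a recovered gene length of at least 4000 bases, they were 60.0% of 10 and 32.9% of 1429. The genes were picked with earlier results of these data known, several of them with a peak, so this share is no independent evidence and was not tested.

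By role, the authors' deposited table held peaks for 5 of 6 spindle assembly genes, 3 of 6 chromosome structure genes, 2 of 3 checkpoint genes and 2 of 6 kinesins. AURKB, CDC20 and CENPF were the genes with a peak in their roles, and the entry and cytokinesis genes had none. Genes with a peak were the more abundant, with a median mean FPKM of 15.6 against 5.02 for the 23 without. Of the 19 peaks listed for them, 18 (94.7%) lay by the authors' deposited table in coding sequence, against 62.0% of 2255 peaks in coding genes, and the 3′ UTR held 1, that of PRC1. The middle of the peaks lay at a median of 49.1% of the gene span from the 5′ end, introns included, against 68.1% for all coding-sequence peaks.

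Most peaks were split over exons, as 15 of 19 (78.9%) in the authors' deposited table were made of several exon blocks, against 67.8% of coding-sequence peaks and 50.6% of all. Their median fold enrichment in the authors' deposited table was 19.6, against 10.5 for all peaks. The deposited log2 change was negative for 11 (57.9%) and positive for 8, against 61.7% negative over the authors' deposited table. Both directions thus occurred among genes of one process. The peak sequences were not read here.

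The highest fold belonged to CENPF. The authors' deposited table gives its peak at chr1:214619142-214622158 (GRCh38, plus strand, 3 blocks of coding sequence) a fold of 375 and a log2 change of 4.73. A second CENPF peak at chr1:214646869-214647228 has a fold of 20.1 and a change of 3.43 in the authors' deposited table, the same sign. TTK followed, with a fold of 83.2 and a change of -4.56 in the authors' deposited table at chr6:80008487-80011902 (plus, 5 blocks). TTK input was above 0 in only 2 libraries, so this fold stands over a gene that was mostly undetected in input.

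MKI67 had 3 peaks with opposite signs, all in coding sequence on the minus strand. In the authors' deposited table chr10:128108355-128108505 has a change of 5.81 (fold 67.1), chr10:128111615-128112172 a change of 1.66 (fold 25.5) and chr10:128115943-128122913 a change of -3.33 (fold 2.19). Signs thus differ within one gene, and the negative peak is the one closest to the 5′ end. KIF4A had 2 peaks of one sign in the authors' deposited table, -4.34 at chrX:70396007-70404759 and -4.26 at chrX:70419749-70420236 (plus).

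Among spindle genes the signs were mixed. ASPM had the largest positive change of the 19 in the authors' deposited table, 7.09 at chr1:197139830-197142469 (minus, fold 73.3), near the 5′ end of the gene. PRC1 had 4.67 at chr15:90966396-90966575 (minus, 3′ UTR, fold 10.5) in the authors' deposited table. NUSAP1 had -5.29 at chr15:41371641-41380182 (plus, fold 19.6), TPX2 -2.24 at chr20:31766663-31771679 (plus, fold 18.7) and DLGAP5 -2.19 at chr14:55177124-55182414 (minus, fold 48.2) in the authors' deposited table. The NUSAP1 peak had the lowest differential FDR of the 19 there, 3.16e-27, and the DLGAP5 peak one of the highest, 0.0389.

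The most negative change was that of the condensin gene SMC2, -5.58 at chr9:104113977-104114736 (plus, fold 27.9) in the authors' deposited table. NCAPD2, of the same complex, had -5.53 at chr12:6526351-6526911 (plus, fold 7.24) there. CDC20 had -5.40 at chr1:43360224-43360831 (plus, fold 4.81) and BUB1 -5.01 at chr2:110661589-110661857 (minus, fold 36) in the authors' deposited table. Positive and smaller were KIF2C, 2.15 at chr1:44760420-44761919 (plus, fold 2.63), and AURKB, 1.98 at chr17:8207299-8207791 (minus, fold 2.22), in the authors' deposited table.

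**Figure D4:**
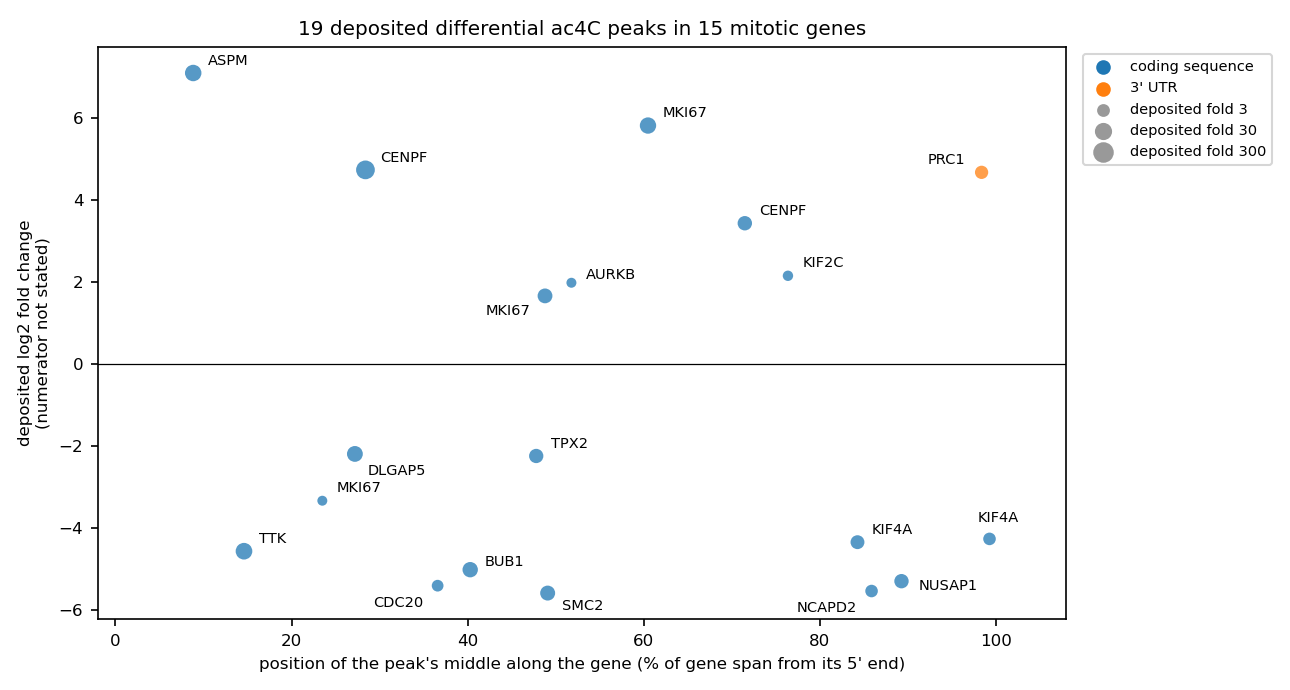
Each of the 19 peaks in the authors' deposited table by the place of its middle along the gene (percent of the gene span from the 5′ end) and its deposited log2 fold change, with point area growing with the logarithm of the deposited fold enrichment. Negative peaks number 11 and positive ones 8, MKI67 lies on both sides of 0, and PRC1 holds the one peak in a 3′ UTR (orange).

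The authors also counted sites of a repeated CXX motif in each peak. At least 1 site was listed in 13 of the 19 peaks (68.4%) in the authors' deposited table, in 11 of the 15 genes. The share was 62.6% of all peaks and 64.6% of coding-sequence peaks. Per 1000 bases of peak the density was 3.72 sites, against 5.62 for all peaks and 6.03 for coding-sequence peaks in the authors' deposited table. Mitotic peaks thus held a site about as often as either set but at a lower density, a difference that was not tested.

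Peak sign and input level were set side by side without a test. Of the 9 genes with only negative peaks in the authors' deposited table, 6 had an input difference above 0 and 3 below 0. Of the 5 with only positive peaks it was 3 and 2. Of the 20 tested genes with no peak in the authors' deposited table, 6 were above 0 and 14 below 0. Over all genes tested 58.8% were below 0. All 23 genes without a peak, untested ones included, were at a lower median mean FPKM, 5.02 against 15.6. CDK1, BIRC5, CENPE and HMMR, lower without overlap in input, had no deposited peak, and PRC1 had a positive one.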

How the data were processed

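The authors deposited gene levels as FPKM for 58302 genes in 6 input libraries. Columns for shNAT10 were identified by elimination, which left 0 per-sample columns without a library. Per the file headers, the authors' peak table holds a fold enrichment (ratio), a differential log2 change, and log10 p and FDR values (scores). Its coordinates were read as GRCh38, since 98.4% of 2190 peaks lay inside the RefSeq gene of their symbol. The submitters' processing notes name cutadapt 2.5, HISAT2 2.1.0 and HOMER 4.10.4, with GRCh38 and GRCm38; no source used here gives the counting tool. RNA (100 µg) had been broken to 100 to 200 nt and read as 150 bp pairs, per the labels.

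The test was limma (version 3.58.1, R 4.3.3; lmFit, then eBayes with a mean trend) on log2(FPKM + 1) where a gene averaged FPKM 1 or more, adjusted over all by Benjamini-Hochberg. Differences on this scale understate changes of low genes. Prior degrees of freedom were 212.6, so errors rest mostly on other genes of similar level. Whole fragments behind the FPKM values were recovered from mitochondrial mRNA lengths and used for depth, thinning and voom. Methods were tested on simulated data. Named genes were members with a peak, at an unadjusted p under 0.05, most abundant in a role, with the 3 largest or smallest differences, or below the filter, and 2 other genes per pathway group; further members were named after their values were seen. Members and lists, with 4 marker lists among them, were chosen with earlier results of these data known. Deviations from the group mean correlated at 0.00, -0.02 and 0.01 between same-numbered replicates of the groups. With replicates this uneven, that cannot show whether they were paired, and the main fit did not pair them.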

Additional observations from a re-analysis of the deposited data

How the results depend on the processing

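By limma, 0 mitotic genes passed in all 17 alternatives, with 0 to 6 at an unadjusted p under 0.05 and a lowest adjusted p of 0.108 to 1.000 by limma. The count over all genes was 20. It was 7 with a pseudocount of 0.01, 10 at a mean FPKM of at least 5, 0 without a filter (340 at an unadjusted p under 0.05), 1 with voom, and 0 with shNAT10 replicates 2 and 3 left out (1139 unadjusted, 6 of them mitotic; the lone library is assumed to vary like shNC). It ran from 1 to 34 with 1 library left out: 1 without shNC replicate 1, 2 or 3, 12 without shNAT10 replicate 1 and 34 without shNAT10 replicate 2. With the replicate block it was 21, with 0 mitotic genes (lowest limma adjusted p = 0.821), and NAT10 was not called with or without it.

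The median over mitotic genes was 0.05 at a mean FPKM of at least 5, 0.03 after quantile normalization (all genes -0.08), and -1.23 with shNAT10 replicates 2 and 3 left out. With 1 library left out it ran from -1.09 (without shNAT10 replicate 2) to -0.36 (without shNAT10 replicate 1). With shNAT10 replicates 2 and 3 left out the differences were -1.81 for NAT10, -2.25 for AURKB, 0.87 for CDC20, -0.65 for CENPF, -1.32 for KIF2C, 1.36 for NUSAP1 and -0.08 for SMC2. On the TPM scale they were -0.04 for AURKB, -0.13 for CENPF, -0.13 for KIF2C and -0.03 for MKI67. NAT10 was -0.23 with a pseudocount of 0.01, CENPF -0.08 with voom and ASPM 0.21 after quantile normalization. With 1 library left out, values ran from -1.39 to 1.07 for CCNB1, -1.48 to 1.47 for AURKB, -1.26 to 0.38 for CDC20, -0.67 to 0.52 for CENPF, -1.61 to 1.00 for KIF2C, -2.25 to 0.56 for ASPM, -0.52 to 1.90 for NCAPD2 and -0.39 to 0.93 for MKI67. With 1 library left out, uncalled values that kept their sign could also move by more than 1.5 times, such as NUSAP1 (-2.57 to -0.08). AURKA ran from 2.26 to 3.67 and TTK from 0.79 to 1.84, but only in the fits that still tested them. AURKA without shNAT10 replicate 1 and TTK without shNAT10 replicate 2 fell under the filter, so whether their signs hold there was not tested. The CDK1 difference was -3.26 with shNAT10 replicates 2 and 3 left out. The cause was not tested. Genes with a peak numbered 15, and 12 at a deposited FDR of at most 0.01. Motif searches on the opposite strand or with 3 repeats were not run.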
